A study of Mus musculus with 36 samples.

Results

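The complement genes C1qa, C1qb, C1qc, C1ra, C2, C4b, Cfb and Serping1 were followed in cultured mouse glia. These 8 genes were taken by symbol from the annotation of each expression table, whatever their values. All 8 were listed among the 15385 genes of the microglial table and among the 14551 genes of the astrocyte table.

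Complement is a cascade of secreted and surface proteins that tags cells, debris and synapses for removal. In the classical pathway, C1q, built from the chains C1qa, C1qb and C1qc, recognises a target and carries the proteases C1r and C1s, which cut C4 and C2 into a C3 convertase. In the alternative pathway, factor B (Cfb) provides the protease part of the convertase, and the serpin C1 inhibitor (Serping1) blocks C1r and C1s. In brain, C1q is made mainly by microglia, while C4 and C1 inhibitor are known products of astrocytes.

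Both cell types came from mixed glial cultures of 2- to 4-day-old C57BL/6 pups, kept for 12 days, from which microglia were selected by CD11b and astrocytes were purified out of the remaining fraction. Treatment lasted 4 h. The letter T stands for TNF, 5z for 5z-7, which blocks the kinase TAK1, S for a Smac mimetic, Z for zVAD, which blocks caspases, and N for Nec-1s, which blocks the kinase activity of RIPK1. There were 6 microglial groups of 4 libraries, treated with the vehicle DMSO, Nec-1s alone, T/5z, T/5z/N, T/S/Z and T/S/Z/N. The astrocyte groups had 3 libraries each and lacked both T/5z treatments. Microglia given T/5z can die by apoptosis and those given T/S/Z by necroptosis, in each case through RIPK1, and no such death is implied here for astrocytes. The comparisons with Nec-1s ask which changes need the kinase activity of RIPK1. All mice were of 1 strain with no engineered allele named. Brains were pooled before culture, so the libraries of a group may not be separate animals, and p-values measure the spread between libraries. The paper counts biological replicates as single animals or as cells from separate litters, without naming these libraries. In the microglial table each gene's mean had been made equal between replicates before deposit. Its SDs, ranges and overlaps therefore describe adjusted values.

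Values are log2(FPKM + 1), where FPKM counts fragments per length of exon and per library size, and the depth of the libraries is unknown. The astrocyte and microglial libraries were made by different providers and normalised separately, so levels of both cell types are set side by side without a test. Tested were genes that reached a log2 value of 1 in 4 or more microglial or in 3 or more astrocyte libraries, which kept 10524 and 13842 genes. It was called when its fold change exceeded 1.5 (0.585 on the log2 scale) at an adjusted p under 0.05 in limma. C1qa, C1qb, C1qc, C2 and Cfb passed this filter in microglia (5 of 8), and all 8 genes passed it in astrocytes. All 14 microglial markers were listed in microglia and their summed level in DMSO was 11730 FPKM ± 401 (SD, n = 4), against 14.4 for the 12 astrocyte markers. In astrocytes treated with DMSO the astrocyte markers summed to 4264 FPKM ± 58.2 (SD, n = 3) and the microglial markers to 132.2.

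In the deposited annotation, with coordinates of the mouse build GRCm38, the C1q chains are neighbours on the minus strand of chromosome 4. C1qb lies at chr4:136880129-136886187, C1qc at chr4:136889804-136893065 and C1qa at chr4:136895917-136898803. C2, Cfb and C4b lie in the major histocompatibility region on the minus strand of chromosome 17. C1ra is at chr6:124512405-124523443 on the plus strand and Serping1 at chr2:84765387-84775444 on the minus strand. C2 ends 85 bases upstream of the start of Cfb (chr17:34856374-34862518) on that strand, and both carried the annotation's mark for confounded genes in both tables.

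Sequence shared with other genes limits 4 of the 8 genes. In the GENCODE M21 annotation the read-through gene Gm20547 holds 79.5% of the exonic bases of Cfb and 42.8% of those of C2, so reads of Cfb or C2 can be counted for it. Gm20547 itself averaged 0.03 to 0.12 on the log2 scale in the microglial groups and was not listed in astrocytes. Of the windows of 100 bases along the C1ra transcript 35.9% also occur in C1rb or Gm18840, and of those along C4b 16.5% occur in C4a. C4a averaged between 0.93 and 1.25 on the log2 scale in the astrocyte groups. For C1qa, C1qb, C1qc and Serping1 no window of this length was found in another gene's transcripts.

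In microglia under DMSO the C1q chains were among the most abundant transcripts of the table. C1qa ranked 13 from the top with 2961 FPKM ± 208 (SD, n = 4), C1qb ranked 16 with 2287 ± 110 and C1qc ranked 19 with 2137 ± 128. C2 reached 55.3 FPKM ± 2.96 and Cfb 47.9 ± 1.13, levels above those of 91.6% and 90.3% of the genes listed. C1ra (0.806 FPKM), C4b (0.681 FPKM) and Serping1 (0.0790 FPKM) were below 1 FPKM, above 32.9%, 31.4% and 11.5% of the genes listed.

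In astrocyte libraries other genes led. Serping1, with 53.2 FPKM ± 2.63 (SD, n = 3) under DMSO, and C4b, with 39.9 ± 1.01, were the most abundant of the 8 genes. C1qb had 17.4 FPKM ± 2.22, C1qc 11.8 ± 0.966, C1qa 10.3 ± 1.05 and C1ra 7.01 ± 0.769, and the values of C1qc and C1qa overlapped between libraries. C2 was low, at 2.59 FPKM ± 0.445, and Cfb was the lowest, at 0.774 ± 0.228, above only 4.04% of the genes listed.

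**Figure D1:**
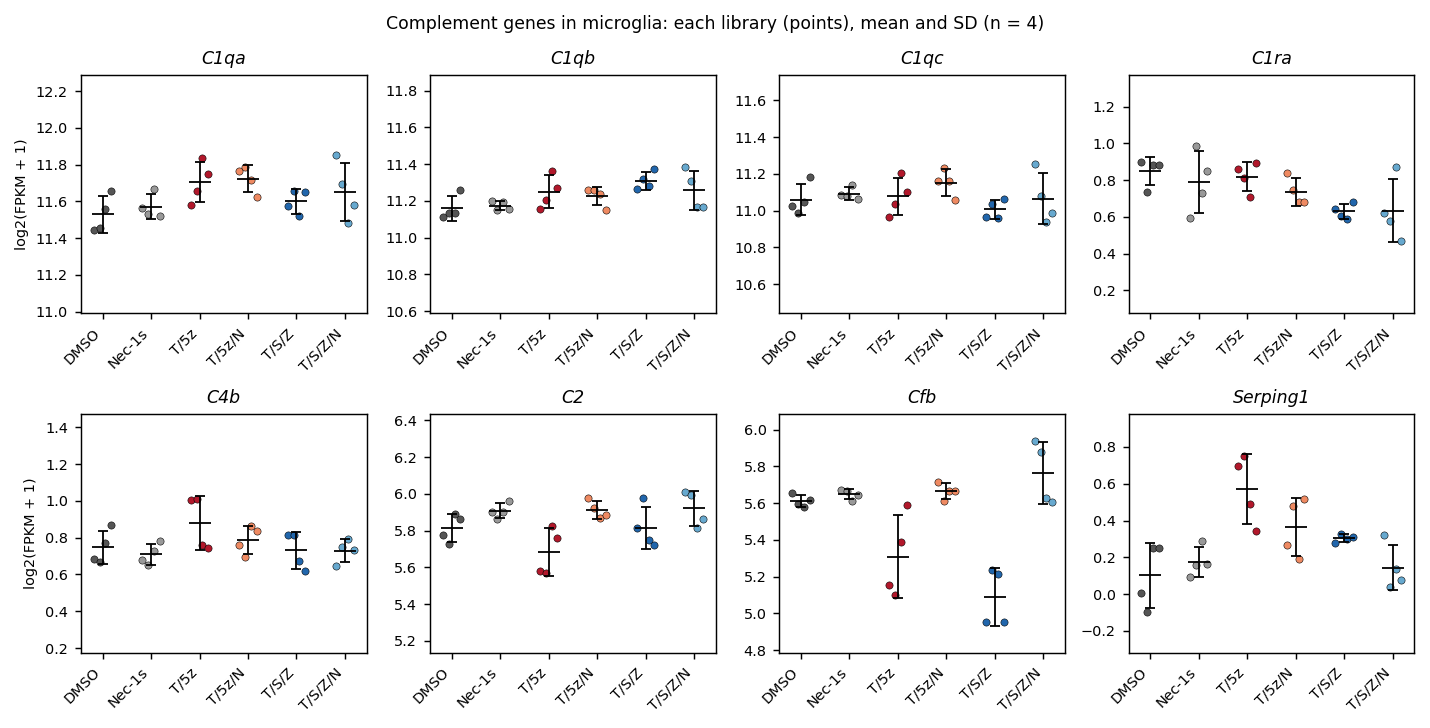
Deposited log2(FPKM + 1) values of the 8 complement genes in the microglial libraries, by treatment. Points are libraries (4 per treatment), bars are means and SDs, and each panel has its own axis that spans at least 1.3 log2 units. Cfb is lower in all 4 T/S/Z libraries than in any DMSO library, while the C1q chains stay between 10.94 and 11.85 throughout.

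The C1q chains of microglia moved little with treatment. Over all 24 libraries C1qa lay between 11.45 and 11.85 on the log2 scale, C1qb between 11.11 and 11.38, and C1qc between 10.94 and 11.25. The means of the 6 groups spanned 0.19 for C1qa, 0.15 for C1qb and 0.15 for C1qc.

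Under T/5z, C1qa read 11.58, 11.66, 11.84 and 11.75 in replicates 1 to 4, against 11.45, 11.46, 11.56 and 11.66 under DMSO. The groups overlapped, and each T/5z library was above the DMSO library of its number. The difference was 0.18 (SE 0.052, adjusted p = 0.0212), below the fold minimum.

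Under T/S/Z, C1qb read 11.26, 11.32, 11.28 and 11.37, against 11.11, 11.13, 11.13 and 11.26 under DMSO, so the T/S/Z values lay above all DMSO values. The difference was 0.15 (SE 0.038, adjusted p = 0.00799), also below the fold minimum. Under quantile normalization this difference was -0.39, so the direction for C1qb depends on how libraries are scaled. The same scaling gave -0.32 for C1qa and -0.58 for C1qc under T/S/Z, where the deposited scale gave 0.07 and -0.05.

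The proportions of the chains shifted slightly. C1qc made up 28.9% ± 0.35 (SD, n = 4) of the summed FPKM of the 3 chains under DMSO, with a range of 28.7% to 29.4%. It made up 27.1% to 27.3% under T/5z and 26.6% to 26.8% under T/S/Z, and neither range overlapped that of DMSO. With Nec-1s added the share of C1qc was 27.8% to 28.7% after T/5z and 27.0% to 27.7% after T/S/Z. C1qb made up 33.0% under T/S/Z against 31.0% under DMSO, and C1qa 42.1% under T/5z against 40.1%. These shares are a description, and a common scaling factor of a library cancels in them.

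The C1qc promoter holds a match of the motif GAGGAAG, bound by PU.1, the transcription factor of the myeloid lineage, and is shown because C1qc was the chain whose share lay outside the DMSO range under both stimuli. The 30 bases run from -205 to -176, counted from the RefSeq start base as 0, at chr4:136893090-136893119 of GRCm38.p6 on the minus strand, with the match in capitals.
C1qc: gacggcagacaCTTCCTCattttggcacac
In this orientation the match reads on the reverse strand, and 13.6% of all 32851 RefSeq promoters of the same 300-base window hold it on either strand. RefSeq promoters were at hand for C1qb, C1qc and C1ra, 3 of the 8 genes. Motifs were searched on both strands, and besides GAGGAAG these were the STAT motif TTCNNNGAA, the C/EBP motif TTGCNNAA, the TATA box TATAAA, the box named by its letters CCAAT, the interferon response element and an NF-kB motif. The C1qb window held none of these and that of C1qc only the match shown.

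Of the 5 genes tested in microglia, Cfb had the largest changes. Its log2 values under DMSO were 5.65, 5.59, 5.58 and 5.62 in replicates 1 to 4. Under T/5z they were 5.15, 5.10, 5.39 and 5.59, and under T/S/Z they were 4.96, 5.23, 5.21 and 4.95. All T/S/Z values were below all DMSO values, while the highest T/5z value reached into the DMSO range.

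The mean Cfb level went from 47.9 FPKM under DMSO to 39.0 under T/5z and 33.2 under T/S/Z. On the log2 scale Cfb changed by -0.30 under T/5z (SE 0.088, adjusted p = 0.0194) and by -0.52 under T/S/Z (SE 0.075, adjusted p = 0.000456). Both passed the adjusted p and stayed below the fold minimum, and all 4 pairs were lower in each. At an adjusted p under 0.05 alone, 3 of the 5 genes passed under T/5z, where 64.2% of all genes tested did, and 2 of 5 under T/S/Z, where 71.3% did. The count for T/5z was 0 without replicate 1 and 0 without replicate 2. The direct comparison of T/S/Z with T/5z gave -0.22 (SE 0.11, adjusted p = 0.158), which did not separate the stimuli. Without 1 replicate this difference ran from -0.34 to -0.08, with an adjusted p of 0.0466 to 0.489.

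With Nec-1s added, Cfb lay near the vehicle level or above it. Cfb read 5.71, 5.61, 5.67 and 5.67 under T/5z/N, and 5.94, 5.88, 5.63 and 5.61 under T/S/Z/N. Every value of T/5z/N lay above every value of T/5z, and the same held for T/S/Z/N against T/S/Z.

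Against T/S/Z, the T/S/Z/N libraries were higher by 0.67 (SE 0.083, adjusted p = 0.000371, 4 of 4 pairs), and this rise of Cfb was called. It was the only one of the 5 tested genes called there, where 12.1% of all genes tested were called and 5.35% were called higher, and also the only one at an adjusted p under 0.05 alone, which 57.8% of all genes passed. Without replicate 1 the difference was 0.57 and no longer passed the fold minimum. Against T/5z, the T/5z/N libraries were higher by 0.36 (SE 0.077, adjusted p = 0.00574), below the fold minimum. The difference between both Nec-1s effects on Cfb was 0.32 (SE 0.16, adjusted p = 0.158), so a difference between the stimuli in what Nec-1s did to Cfb was not shown. Against DMSO the difference was 0.05 for T/5z/N (adjusted p = 0.391) and 0.15 for T/S/Z/N (adjusted p = 0.109).

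C2, the classical-pathway counterpart of Cfb, varied less. It read 5.77, 5.73, 5.89 and 5.86 under DMSO, 5.58, 5.57, 5.82 and 5.76 under T/5z, and 5.98, 5.92, 5.87 and 5.88 under T/5z/N. The T/5z values overlapped those of DMSO but not those of T/5z/N. C2 changed by -0.13 under T/5z (SE 0.045, adjusted p = 0.0385) and by 0.23 from T/5z to T/5z/N (SE 0.063, adjusted p = 0.0179), both below the fold minimum. The change of C2 under T/S/Z was 0.00 (SE 0.074, adjusted p = 0.993), and with Nec-1s added it was 0.11 (SE 0.046, adjusted p = 0.0810).

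In all, none of the 5 genes was called under T/5z, where 24.4% of all genes tested were called, or under T/S/Z, where 29.6% were. At an unadjusted p under 0.05 in limma there were 3 under T/5z (67.8% of all genes) and 2 under T/S/Z (73.6% of all genes), and an ordinary per-gene variance called 0 in both. The unadjusted count for T/5z was 2 without replicate 1 and 1 without replicate 2. The median change of the 5 genes was 0.02 under T/5z and 0.00 under T/S/Z, beside -0.06 and -0.08 over all genes tested. For T/5z/N against T/5z 0 of 5 were called, where 7.16% of all genes were called. In limma 2 of 5, C2 and Cfb, passed there at an unadjusted p under 0.05 (55.3% of all genes) and at an adjusted p under 0.05 (48.3%), the latter 1 of 5 without replicate 1 or without replicate 2. Under Nec-1s alone, where 0% of all genes were called, the differences from DMSO ran from 0.01 for C1qb to 0.09 for C2, with 0 called and only C2 at an unadjusted p under 0.05 in limma, which 8.48% of all genes passed. This unadjusted count was 0 without replicate 1 or 2 and 4 of 5 without replicate 4.

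C1ra, C4b and Serping1 were too low in microglia to be tested. C1ra lay between 0.47 and 0.99 on the log2 scale over the 24 libraries and C4b between 0.62 and 1.01. Serping1 read 0.01, -0.10, 0.25 and 0.25 under DMSO and 0.69, 0.75, 0.49 and 0.34 under T/5z, and a value below 0 cannot arise from log2(FPKM + 1) itself. All 4 T/5z values of Serping1 lay above the DMSO values, as did those under T/S/Z, at 0.28 to 0.33. The summed astrocyte markers stood at 13.0 to 16.2 FPKM in the same DMSO libraries and at 18.6 to 35.2 under T/5z, with 4 of the 8 tested astrocyte markers called higher. They stood at 22.4 to 32.7 FPKM under T/S/Z, with 5 of the 8 called higher. The 6 markers of fibroblasts and pericytes summed to 6.66 to 9.10 FPKM under DMSO and to 12.7 to 21.8 under T/5z, with 4 of the 4 tested called higher, and to 5.08 to 8.33 under T/S/Z. The part of both lists in the Serping1 values was not tested. With values below 0 set to 0, microglial Serping1 under DMSO was at 0.179% of the astrocyte level, and the 12 astrocyte markers were at 0.114% to 2.20%.

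Of 51 other complement genes, 29 were listed in microglia and 19 tested. Under T/5z 1 was called higher and 4 lower, and under T/S/Z 2 were called higher and 2 lower, with median changes of -0.16 and 0.07, where 24.4% and 29.6% of all genes were called. C5ar1, the receptor for the anaphylatoxin C5a, rose under T/S/Z by 1.04 (SE 0.050, adjusted p = 1.58e-06) and fell with Nec-1s added (-1.06, SE 0.048, adjusted p = 4.85e-06). Under T/5z C5ar1 changed by 0.09 (adjusted p = 0.258), and T/5z/N was below T/5z (-0.80) and below DMSO (-0.70), both called. Clu, an extracellular chaperone named after its values were seen, was the other one called higher, by 0.76 under T/5z and 0.79 under T/S/Z. Clu fell when Nec-1s was added to T/S/Z (-0.91) and to T/5z (-0.54, adjusted p = 0.00263), the latter below the fold minimum. Its level was 1.56 in microglia and 9.63 in astrocytes under DMSO on the log2 scale. The largest decreases under both stimuli were those of C5ar2, a further C5a receptor (-1.93 under T/5z and -1.78 under T/S/Z). C5ar2 went from 2.64 on the log2 scale under DMSO to 0.71 and 0.86, below the filter's value of 1. Cd93, a surface lectin once described as a C1q receptor, fell too (-1.37 and -0.87). C3, the component that every pathway cleaves, was higher by 0.51 under T/5z (adjusted p = 0.000659) and by 0.31 under T/S/Z (adjusted p = 0.00435), below the fold minimum. Its level was 7.25 under DMSO and 7.67 under T/S/Z/N on the log2 scale, and T/S/Z/N against T/S/Z gave 0.11 for C3 (adjusted p = 0.0828).

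The remaining named genes tested in microglia were called under neither stimulus. Properdin (Cfp), which stabilises the alternative convertase, changed by -0.43 under T/5z (adjusted p = 0.000216) and by -0.21 under T/S/Z (adjusted p = 0.00671). The membrane regulator Cr1l differed by 0.06 and 0.14. The C3a receptor C3ar1 changed by -0.39 under T/5z (adjusted p = 0.00481) and by 0.12 under T/S/Z (adjusted p = 0.0410). Itgam, a chain of complement receptor 3, changed by -0.05 and 0.07.

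**Figure D2:**
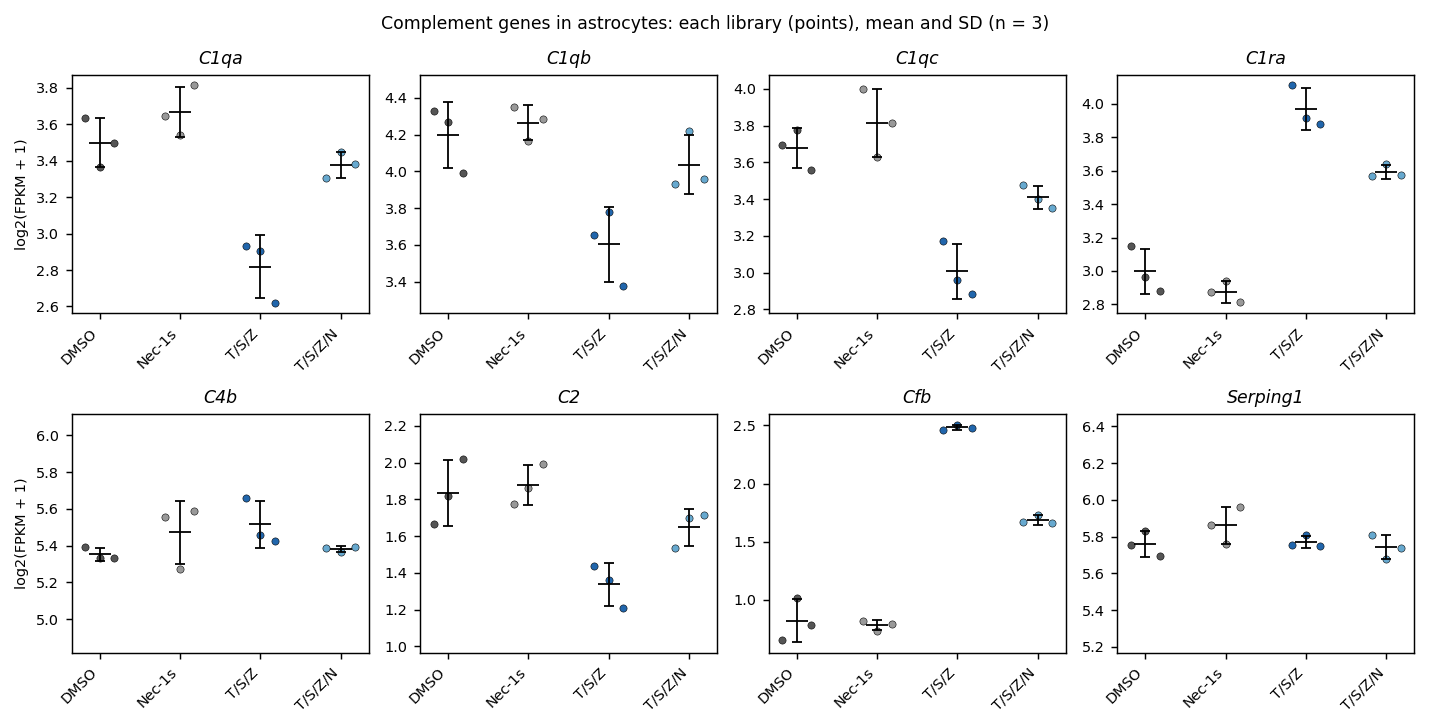
Deposited log2(FPKM + 1) values of the 8 complement genes in the astrocyte libraries, by treatment. Points are libraries (3 per treatment), bars are means and SDs, and each panel has its own axis that spans at least 1.3 log2 units. Cfb and C1ra are higher and the C1q chains lower in every T/S/Z library than in any DMSO library.

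In astrocytes T/S/Z split the complement genes. Cfb and C1ra rose, C1qa, C1qb and C1qc fell, and C4b and Serping1 did not pass the test. That is 5 of 8 genes called, where 15.4% of all 13842 genes tested were called (6.39% higher and 8.99% lower). At an adjusted p under 0.05 alone 6 of 8 passed, where 40.4% of all genes did, and 3 of 8 without replicate 1.

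C1qa read 3.63, 3.37 and 3.50 under DMSO and 2.93, 2.91 and 2.62 under T/S/Z. C1qb read 4.33, 4.27 and 3.99 against 3.65, 3.78 and 3.38, and C1qc read 3.69, 3.78 and 3.56 against 3.17, 2.96 and 2.88. For each chain all T/S/Z libraries lay below all DMSO libraries.

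The decreases were close in size. C1qa changed by -0.68 (SE 0.11, adjusted p = 0.00280), C1qb by -0.59 (SE 0.083, adjusted p = 0.00166) and C1qc by -0.67 (SE 0.096, adjusted p = 0.00182). C1qb was near the fold minimum, and it lost the call in 6 of 11 alternatives, among them centring libraries on their medians (-0.54) and quantile normalization (-0.55). C1qa and C1qb lost it without replicate 1, where the adjusted p of C1qa was 0.0699 and the change of C1qb was -0.55 with an adjusted p just over the threshold, and without replicate 3, where the changes were -0.58 and -0.58. With 5 in place of 1 added before the log, all 3 chains stayed below the fold minimum (-0.47, -0.47 and -0.48), and with an ordinary per-gene variance their adjusted p was 0.0719 to 0.117.

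With Nec-1s added, C1qa was higher than under T/S/Z alone by 0.56 (SE 0.11, adjusted p = 0.0288), C1qb by 0.43 (SE 0.097, adjusted p = 0.0417) and C1qc by 0.40 (SE 0.093, adjusted p = 0.0455). All 3 differences stayed below the fold minimum, and all pairs were higher. With Cfb, 4 of the 8 genes passed there at an adjusted p under 0.05 alone, where 7.82% of all genes did, but 2 without replicate 1 and 1 without replicate 2. Nec-1s took back 82.2% of the log2 change of C1qa (53.0% to 117.2% over the 3 pairs), 73.0% of that of C1qb (41.1% to 94.6%) and 60.2% of that of C1qc (53.9% to 69.2%). Against DMSO, T/S/Z/N gave -0.12 for C1qa (adjusted p = 0.408), -0.16 for C1qb (adjusted p = 0.256) and -0.27 for C1qc (adjusted p = 0.0540). With Nec-1s alone as the control these differences were -0.29, -0.23 and -0.40.

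The C1q RNA of these cultures was small beside that of microglia, and markers of microglia moved with it. Under DMSO, astrocyte libraries held C1qa at 0.349%, C1qc at 0.553% and C1qb at 0.762% of the FPKM of microglial libraries. The 14 microglial markers were at 0.386% to 43.0% of their microglial level, with a median of 1.05%, above all 3 chains. Ctss, at 0.386%, was the lowest marker, so that C1qa lay below every marker while C1qb and C1qc lay among the lower ones. The tables used different exon lengths for some genes (1203 and 1931 bases for C1qc, 1143 and 4946 for Trem2), which can move such a percentage by more than 1.5 times, so this order is approximate. Tmem119 and P2ry12, whose RNA was less abundant in the cultured microglia, were the highest.

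The summed C1q level under T/S/Z was 61.6% and the summed marker level 66.6% of DMSO, and under T/S/Z/N they were 87.2% and 88.8%. The marker sum lay between 129.7 and 136.7 FPKM under DMSO and between 86.2 and 91.5 under T/S/Z. Of 13 markers tested 7 were called lower under T/S/Z and 4 were called higher when Nec-1s was added to it. The C1q sum was 29.9% ± 1.98 (SD, n = 3) of the marker sum under DMSO and 27.7% ± 3.09 under T/S/Z, a difference smaller than its spread, while in microglia under DMSO it was 62.9% ± 2.18 (SD, n = 4). In such bulk samples fewer cells of a type and less RNA per cell cannot be told apart, and the part of microglia left in the cultures in the C1q values was not tested.

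**Figure D3:**
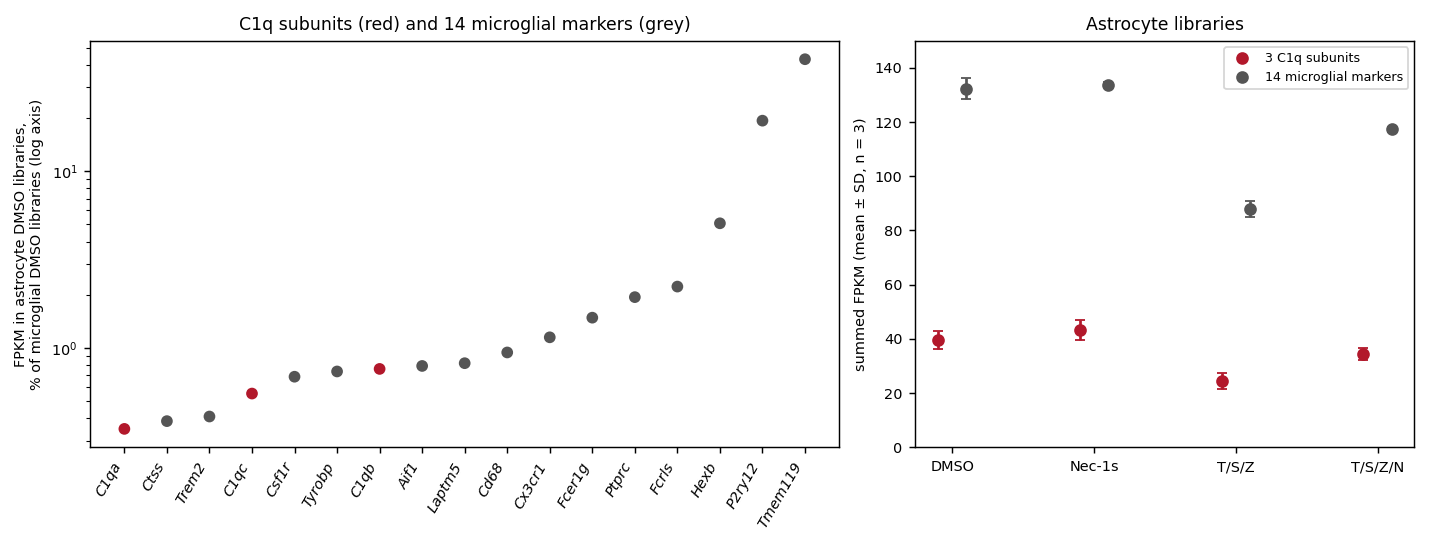
Left, level of each C1q chain (red) and of 14 microglial markers (grey) in astrocyte libraries under DMSO, as a percentage of their FPKM in microglial libraries under DMSO, on a log axis. Right, summed FPKM of the 3 C1q chains and of the markers in the astrocyte groups (mean and SD, n = 3), with the C1q sum at 39.6 under DMSO and 24.4 under T/S/Z.

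C1ra, the protease that C1q activates, went the other way. It read 3.15, 2.97 and 2.88 under DMSO, 4.11, 3.91 and 3.88 under T/S/Z, and 3.57, 3.64 and 3.57 under T/S/Z/N. The 3 groups did not overlap, with T/S/Z/N between the other two.

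The mean C1ra level went from 7.01 FPKM to 14.7 under T/S/Z, 2.10 times as much. C1ra rose by 0.97 (SE 0.083, adjusted p = 0.000170) under T/S/Z and was still higher by 0.60 (SE 0.091, adjusted p = 0.00621) under T/S/Z/N than under DMSO. The latter was just past the fold minimum, and without replicate 2 (0.56) or 3 (0.55) it was not called. T/S/Z/N against T/S/Z gave -0.37 (SE 0.097, adjusted p = 0.0603), which missed the threshold, and 38.6% of the log2 change was taken back (28.8% to 56.4% over the pairs). C1s1, the partner protease of C1ra, was higher by 0.43 under both T/S/Z (adjusted p = 0.0104) and T/S/Z/N (adjusted p = 0.0212), below the fold minimum.

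The RefSeq start of C1ra is followed by matches of a C/EBP-type motif (TTGCNNAA, on the reverse strand) and of the STAT motif TTCNNNGAA, both factors of acute-phase genes. The 30 bases from 14 to 43, counted from the start base as 0, at chr6:124512635-124512664 of GRCm38.p6 on the plus strand, are shown because C1ra rose, with both matches in capitals.
C1ra: gtTTATGCAAatgcttcaTTCCCTGAAaca
This start lies inside the first exon of the deposited C1ra model, whose start is upstream. Of all 32851 promoters 8.3% hold the STAT motif and 10.8% the C/EBP motif, and no match of the NF-kB or interferon motif, held by 1.63% and 3.44%, was found in the window.

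Cfb showed the largest change of the 8 genes in astrocytes. It read 0.66, 1.02 and 0.79 under DMSO and 0.82, 0.73 and 0.79 under Nec-1s alone. Under T/S/Z it read 2.46, 2.51 and 2.48, and under T/S/Z/N 1.66, 1.73 and 1.66. No value of one stimulus group reached into the other or into the unstimulated groups.

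The mean Cfb level under T/S/Z was 4.59 FPKM, 5.93 times that under DMSO. Cfb rose by 1.66 on the log2(FPKM + 1) scale (SE 0.11, adjusted p = 5.23e-05), a scale that understates the change of a gene this low. Cfb reached the filter's value in 7 of 12 libraries, which were those of T/S/Z and T/S/Z/N and 1 of DMSO, so it was tested only because it is high in the stimulated groups. With no filter, where all 8 genes are tested whatever their level, the same 5 were called. With Nec-1s added Cfb fell (-0.80, SE 0.094, adjusted p = 0.00475), the only 1 of the 8 genes called, where 3.1% of all genes tested were called and 1.59% were called lower. With an ordinary per-gene variance these adjusted p were 0.0589 and 0.174, and with 5 added before the log the fall was -0.41, below the fold minimum. T/S/Z/N stayed above DMSO by 0.87 (SE 0.10, adjusted p = 0.00248), a call lost with 5 added (0.32) and with an ordinary variance (adjusted p = 0.104). Nec-1s took back 48.0% of the change, with 44.2% to 52.0% over the 3 pairs. Cfb and C1ra were the 2 genes called in T/S/Z/N against DMSO, where 9.08% of all genes tested were called and 4.36% were called higher. The same 2 passed an adjusted p under 0.05 alone, where 27% of all genes did, and 1 did without replicate 2. With Nec-1s alone as the control in place of DMSO, 4 of 8 passed this adjusted p.

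These Cfb levels rested on few counts. From the smallest steps between low values of a library, the worth of 1 counted read or fragment, Cfb was estimated at 35.4 to 63.6 steps under DMSO, 280 to 283 under T/S/Z and 129 to 146 under T/S/Z/N. Of the low values 70.4% to 80.1% lay within 0.15 of a whole step, so these are estimates and not counts.

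C2 read 1.67, 1.82 and 2.02 under DMSO, 1.44, 1.36 and 1.21 under T/S/Z, and 1.53, 1.70 and 1.71 under T/S/Z/N. The T/S/Z libraries were all below the DMSO libraries. C2 changed by -0.50 under T/S/Z (SE 0.14, adjusted p = 0.0243), below the fold minimum on this scale, while its mean FPKM under DMSO was 1.69 times that under T/S/Z. Without 1 replicate the adjusted p was 0.0601 to 0.108. For C2, T/S/Z/N against T/S/Z gave 0.31 (SE 0.11, adjusted p = 0.122). C2 and Cfb, side by side in the genome and serving the convertases of both pathways, thus had changes of opposite sign under T/S/Z in astrocytes.

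C4b and Serping1, the most abundant of the 8 genes in astrocytes, passed the test in none of the astrocyte comparisons. C4b read 5.39, 5.33 and 5.33 under DMSO and 5.66, 5.46 and 5.43 under T/S/Z, a difference of 0.16 (SE 0.074, adjusted p = 0.1201). Serping1 read 5.75, 5.83 and 5.69 under DMSO and 5.76, 5.81 and 5.75 under T/S/Z, a difference of 0.01 (SE 0.068, adjusted p = 0.919). With Nec-1s added to T/S/Z the changes were -0.13 for C4b and -0.03 for Serping1.

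Nec-1s alone called none of the 8 genes in astrocytes in limma, with 0 at an unadjusted p under 0.05, where 0.0144% of all genes were called and 5.71% were at an unadjusted p under 0.05. The differences ran from -0.12 for C1ra to 0.17 for C1qa. Without replicate 2 the count at an unadjusted p under 0.05 was 2. The summed level of the 8 genes was 143.1 FPKM ± 5.96 (SD, n = 3) under DMSO, 143.7 ± 8.04 under T/S/Z and 143.2 ± 1.11 under T/S/Z/N, which differ by less than their spread. The median change of the 8 genes under T/S/Z was -0.24, beside -0.11 over all genes tested, a shift that was -0.052 after the libraries were centred on their medians.

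**Figure D4:**
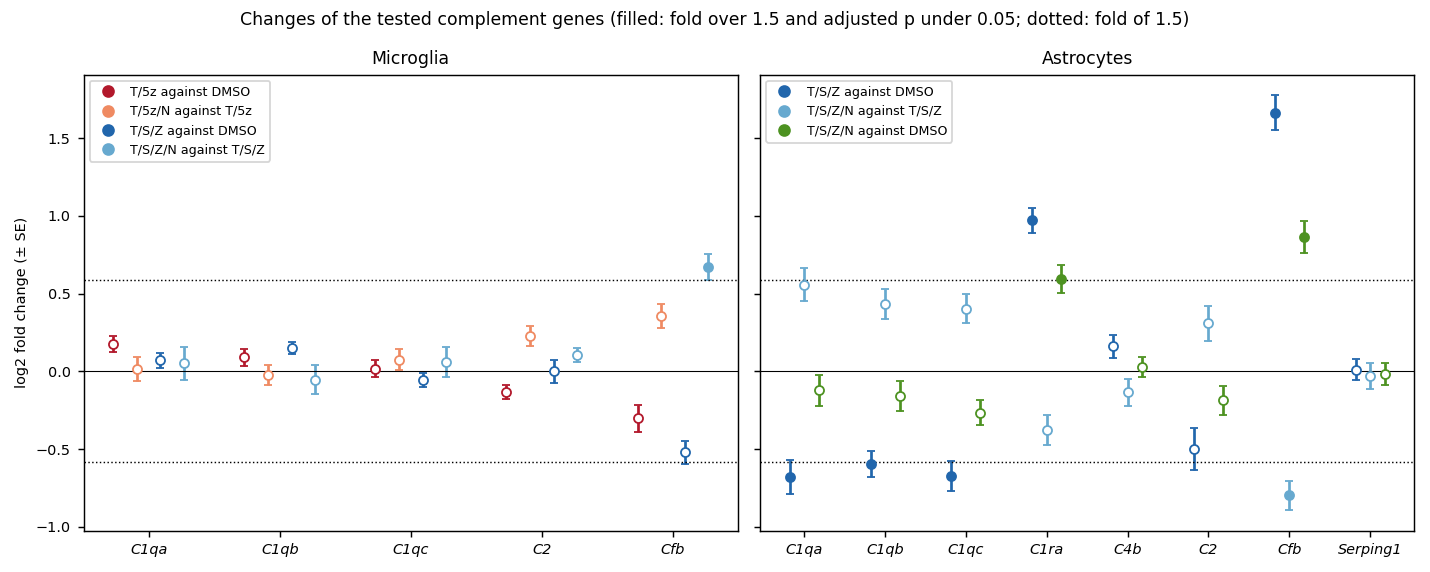
Log2 fold changes of the tested complement genes with their SE, in microglia (5 genes, n = 4) and astrocytes (8 genes, n = 3). Filled points passed a fold of 1.5 (dotted lines, 0.585) at an adjusted p under 0.05. Cfb under T/S/Z is at -0.52 in microglia and at 1.66 in astrocytes.

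Of the 51 other complement genes, 26 were listed and tested in astrocytes. Under T/S/Z 1 was called higher and 6 lower, where 6.39% and 8.99% of all genes were, with a median change of -0.17, beside -0.11 over all genes. C3 was the one called higher, by 1.34 (SE 0.088, adjusted p = 4.43e-05), from 6.73 to 8.07. Adding Nec-1s to T/S/Z gave 0.02 for C3 (SE 0.086, adjusted p = 0.885). Vitronectin (Vtn), which binds the terminal complex, fell under T/S/Z (-1.26) and rose by 0.88 with Nec-1s added. The lectin-pathway protease Masp1 fell under T/S/Z (-0.93), from 1.62 to 0.69, a level below the filter's value.

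The C3a receptor C3ar1 fell in astrocytes under T/S/Z (-0.60, adjusted p = 0.00863), from 1.18 to 0.58 on the log2 scale. These levels lie near the filter's value of 1, and the fall was just past the fold minimum. C5ar1 changed by -0.39 (adjusted p = 0.0614). Itgam changed by -0.54 (adjusted p = 0.00556), below the fold minimum. Cfp changed by 0.03 and Cr1l by -0.20, and neither passed the test. C3ar1, C5ar1 and Itgam are themselves genes of microglia, whose markers moved as given above. The 6 markers of fibroblasts and pericytes summed to 611.5 to 625.6 FPKM under DMSO and to 112.3 to 124.5 under T/S/Z, with 6 of 6 called lower. Under T/S/Z/N they summed to 489.6 to 492.3 FPKM, with 6 of 6 called higher than under T/S/Z. The 9 markers of the oligodendrocyte lineage, 8 of them listed, summed to 100.7 to 117.9 FPKM under DMSO, 61.1 to 87.7 under T/S/Z and 68.9 to 72.5 under T/S/Z/N, with 2 of 7 tested called lower under T/S/Z. The part of both lists in the complement values was not tested. The 4 endothelial markers, of which Cldn5 and Pecam1 were not listed, summed to 13.6 to 14.7 FPKM under DMSO, 5.79 to 6.43 under T/S/Z and 11.5 to 14.1 under T/S/Z/N. Cdh5 fell under T/S/Z (-1.74) and rose by 1.37 with Nec-1s added, while Flt1 rose by 0.61 under T/S/Z, and the part of these cells in the complement values was not tested. Of 4 neuronal markers only Tubb3 was listed in astrocytes, at 11.1 to 13.2 FPKM under DMSO and 10.0 to 15.6 under T/S/Z, and Rbfox3, Snap25 and Syt1 were not.

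Set side by side, both cell types gave Cfb opposite signs under the same treatment. T/S/Z went with -0.52 in microglia (4 of 4 pairs lower) and 1.66 in astrocytes (3 of 3 pairs higher), and adding Nec-1s with 0.67 and -0.80. The levels nonetheless stayed far apart, since stimulated astrocytes reached 4.59 FPKM of Cfb and stimulated microglia kept 33.2. C1qb also differed in sign, with 0.15 in microglia on the deposited scale, -0.39 there under quantile normalization, and -0.59 in astrocytes.

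Some of the genes whose log2 values followed each complement gene most closely over all libraries of a table are given as a description, since libraries share treatments. In microglia (24 libraries) these were Tspo and Oas1a for C1qb (Pearson r 0.93 to 0.91) and Cyba, Fkbp8 and Psmb8 for C1qa (0.89 to 0.86). They were Ifi27l2a, Ndufb8 and Fkbp8 for C1qc (0.87 to 0.85), Dgat1, Ms4a7 and Adgre1 for C2 (0.90 to 0.83) and Mfap3, Nudcd3 and Zyg11b for Cfb (0.92). The C1q chains correlated with each other at 0.49 to 0.82, and Cfb with C2 at 0.65.

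In astrocytes (12 libraries) among the genes nearest to Cfb were Csf2, Nedd4l and Nos2 (r 0.995 to 0.99), and among those nearest to C1ra were Mvp and Mx1 (0.99). C1qa was nearest to Anapc5, Tspan5 and Fbln1 (0.98 to 0.97), C1qb to Col7a1, Swsap1 and 6430550D23Rik (0.96 to 0.94), and C1qc to Cyth4, Tmem164 and Bgn (0.98 to 0.97). C2 was nearest to Pigc, Mettl8 and Fmo5 (0.96), C4b to Zswim8, Elovl1 and Men1 (0.90 to 0.89), and Serping1 to Fbn2, Safb2 and Ulk3 (0.87 to 0.84). Among the 8 genes themselves, Cfb correlated with C1ra at 0.96 and with C1qa, C1qb, C1qc and C2 at -0.91 to -0.85, over libraries in which all 6 differed at an adjusted p under 0.05 under T/S/Z.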

How the data were processed

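Alignment and quantification were done by the authors with Array Studio (OmicSoft). The deposited values are log2(FPKM + 1), scaled to a common upper quartile. The aligner's settings are not given in the sources used here. In the microglial table each gene's mean over the 6 treatments was equal between replicates to within 6.67e-05, an adjustment the study's methods do not describe, and it left up to 1438 values below 0 in a library. Polyadenylated RNA was sequenced. Astrocyte libraries were strand-specific, no strand is stated for the microglial libraries, and the providers differed, so antisense reads could be counted for a gene in microglia.

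The deposited values were compared with limma 3.58.1 in R 4.3.3 (lmFit, eBayes with trend), on the libraries of the compared groups, with the replicate number as a block after the study's paired comparison. Tests were 2-sided, and p was adjusted by Benjamini-Hochberg over all genes tested. The code was tested on simulated data. FPKM values and sums are back-transformed from the deposited log2 values, and errors are SDs unless an SE is named. Each comparison was repeated without the block, with other filters, added constants and scalings, with an ordinary per-gene variance, and without each replicate.

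The 8 genes, the marker lists and the list of other complement genes were chosen with earlier results of these data known. Named beside the 8 genes were C3, C1s1, Cfp, Cr1l, C3ar1, C5ar1 and Itgam, and up to 2 more complement genes with the largest called changes in a comparison. Genes with the most similar pattern were chosen by Pearson's r over the libraries of a table. A few genes that these rules name are not reported here. Depth per library is not known. Library steps estimated from low values were not whole often enough to recover counts, so no count test was run. Promoters are from the RefSeq table of GRCm38.p6.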

Additional observations from a re-analysis of the deposited data

Results flagged for a closer look

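In microglia each complement gene was checked for 1 library apart from the other 3 of its group, and about 1 in 20 groups would be marked by chance. Of 48 groups 2 were marked. C1qb under DMSO read 11.26 in replicate 4, while the other libraries lay between 11.11 and 11.13. C1ra under DMSO read 0.74 in replicate 2, while the others lay between 0.88 and 0.90.

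Signs differed between the cell types for Cfb and C1qb, in every pair of each table, and this difference was not tested because the tables were normalised separately. Under T/S/Z against DMSO, Cfb changed by -0.52 in microglia and by 1.66 in astrocytes. For T/S/Z/N against T/S/Z, Cfb changed by 0.67 in microglia and by -0.80 in astrocytes. Under T/S/Z against DMSO, C1qb changed by 0.15 in microglia and by -0.59 in astrocytes, and the microglial sign turned under quantile normalization.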

How the results depend on the processing

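Counts of complement genes called depended on the setting in 5 comparisons. For T/S/Z against DMSO in astrocytes, 5 were called, and 2 with 5 added before the log, 1 with an ordinary per-gene variance, 4 with median centring, with quantile normalization and with a mean log2 of at least 3, and 3 to 5 without 1 replicate. Calls over all 13842 genes there went from 2130 to 985 with 5 added and to 281 with an ordinary variance. For T/S/Z/N against T/S/Z in astrocytes, 1 was called, and 0 with a mean log2 of at least 3 (Cfb is then not tested), 0 with 5 added and 0 with an ordinary variance, and 1 to 2 without 1 replicate. For T/S/Z/N against DMSO in astrocytes, 2 were called, and 1 with a mean log2 of at least 3, 0 with 5 added, 0 with an ordinary variance, and 1 to 2 without 1 replicate. In microglia, quantile normalization called 1 (Cfb) for T/S/Z against DMSO, and T/S/Z/N against T/S/Z gave 0 to 1 without 1 replicate. At an adjusted p under 0.05 alone, an ordinary variance gave 1, 0 and 0 in place of 6, 4 and 2 in the 3 astrocyte comparisons and 0 in place of 2 for T/5z/N against T/5z, and quantile normalization gave 4 for T/S/Z against DMSO and 5 for T/S/Z/N against T/S/Z in microglia.

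Signs turned for changes near 0 and for the microglial C1q chains under quantile normalization. The latter gave -0.062 (C1qb) and -0.025 (C1qc) under T/5z, and -0.39 (C1qb), -0.32 (C1qa) and -0.18 (C2) under T/S/Z. It gave 0.035 for C1qb in T/5z/N against T/5z, 0.24 for C1qb in T/S/Z/N against T/S/Z, and -0.0036 for Cfb in T/5z/N against DMSO. Median centring gave 0.044 for C1qc under T/S/Z, -0.031 for C1qa in T/5z/N against T/5z, -0.014 for C1qc and -0.021 for C1qa in T/S/Z/N against T/S/Z, and 0.033 for astrocyte Serping1 in T/S/Z/N against DMSO. With Nec-1s as the control, C4b in T/S/Z/N was -0.090. Without 1 replicate, the ranges that crossed 0 in microglia were -0.029 to 0.050 (C1qc, T/5z), -0.081 to 0.049 (C2, T/S/Z), -0.066 to 0.011 (C1qb) and -0.039 to 0.064 (C1qa) on adding Nec-1s to T/5z, and -0.016 to 0.10 (C1qc) and -0.022 to 0.095 (C1qa) in T/S/Z/N against T/S/Z. For Serping1 in astrocytes they were -0.012 to 0.028 under T/S/Z, -0.070 to 0.022 in T/S/Z/N against T/S/Z and -0.055 to 0.050 against DMSO. The cause was not tested.

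Quantile normalization moved 14 levels by more than their SD. In microglia these were Cfb at 5.68 (DMSO) and 5.72 (Nec-1s), C2 at 5.98 (Nec-1s), C1qb at 11.35 (DMSO), 11.31 (Nec-1s), 11.31 (T/5z/N) and 11.00 (T/S/Z), C1qc at 11.16 (Nec-1s) and 10.55 (T/S/Z), and C1qa at 11.64 (DMSO), 11.66 (Nec-1s) and 11.25 (T/S/Z). In astrocytes these were Cfb at 0.73 (Nec-1s) and 2.56 (T/S/Z).

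Whether the replicate numbers pair the libraries was not settled. Deviations of same-numbered astrocyte libraries correlated at -0.14 to 0.41, with 5 of 18 pairs over 0.1, and 7 of 12 libraries were closest to their own number, a hint from the data. The paper compared groups by a paired t test, without saying what pairs the libraries. In microglia the check is void, because the means of the replicates had been equalised. For the same reason the microglial counts with and without the replicate block cannot settle the pairing. Without the replicate block, the counts of complement genes called were 0, 0, 1, 0, 5, 1 and 2 for T/5z and T/S/Z against DMSO, T/S/Z/N against T/S/Z and T/5z/N against T/5z in microglia, and T/S/Z against DMSO, T/S/Z/N against T/S/Z and T/S/Z/N against DMSO in astrocytes, as with it. The depth is unknown, so it sets no stated limit; the lowest levels tested were those of astrocyte Cfb.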
